A study of Drosophila melanogaster with 9 samples.

Results

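Gene expression after 18 hr of Insb overexpression was compared with that after 9 hr in *brat*-null larval brains of *Drosophila melanogaster*. The 6 libraries of these groups, 3 per time, were chosen by their time labels from the 9 libraries of the series. The other 3 libraries, at 0 hr, are used for their levels and in the shared estimate of the spread. The brains were *brat11*/*Df(2L)Exel8040* and carried 2 copies of *Tub-Gal80ts*, *Wor-Gal4* and *UAS-insb*. The study describes this driver as combined with *Ase-Gal80*, which restricts it to type II neuroblasts, although the genotype given for the sequenced brains does not list that transgene. All larvae were grown for 5 days, at 25 °C apart from the shift. Those of the compared groups spent their last 9 or 18 hr at 33 °C, where the repressor Gal80ts loses its activity and Gal4 drives *insb*, whereas the 0 hr larvae were never shifted. The move to the higher temperature is therefore shared by both groups, but duration of overexpression and time at 33 °C differ together and cannot be told apart. Each library was made from poly-A RNA of pooled whole brains, so other brain cells contributed to every value.

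Type II neuroblasts are stem cells of the larval brain that lack the transcription factor Ase and divide into a new neuroblast and an immature intermediate neural progenitor (INP). The immature progenitor turns on Erm and then Ase and becomes an INP, which divides several times while passing through a series of factors that starts with the Sox protein D. In *brat*-null brains the immature progenitors revert to neuroblasts and type II neuroblasts accumulate. Insb is a nuclear protein that acts against Notch signalling, the pathway that keeps neuroblasts in their stem cell state.

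The libraries held between 26533845 and 37109356 counts, spread over 14560 genes. In genes of moderate count, 9 hr replicates 2 and 3 were no further apart than sampling noise allows if both reads of a pair were counted. The other 8 pairs of replicates were further apart, and replicates 2 and 3 of the 9 hr group were counted as 1 sample. The 9 hr group therefore has n = 2 and the 18 hr group n = 3 in every mean. Values are given as CPM for each library, which are a gene's counts per 1000000 counts of the library after scaling, and means are followed by the SD. The brain markers were present in all 6 libraries, with *mira*, the neuroblast adaptor protein, at between 749 and 1081 CPM, the neuronal *elav* at between 423 and 703 CPM and the glial *repo* at between 51.8 and 62.4 CPM. Library 1 of the 18 hr group had less of many neuroblast genes and more of non-neural genes than its 2 companions. Library 1 of the 9 hr group had more reads from short genes than the near-identical pair.

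*insb* itself checks the labels of shifted against unshifted brains, but not those of 9 hr against 18 hr. Its level was 32.9, 32.5 and 36.9 CPM in the 0 hr libraries, 369, 389 and 396 CPM in the 9 hr libraries, and 309.9, 342 and 359 CPM in the 18 hr libraries. Every library of the shifted brains was about an order of magnitude above the 0 hr libraries, and the 18 hr libraries lay just below those at 9 hr. The log2 fold change from 9 to 18 hr was -0.18 (SE 0.09), which did not pass the test (unadjusted p = 0.0795, adjusted p = 0.674, edgeR's quasi-likelihood test). The fitted level, which does not tell the transgene from the endogenous gene, was 1.13-fold higher at 9 hr.

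Few genes differed between 9 and 18 hr beyond the spread of the replicates. A gene was called with a Benjamini-Hochberg adjusted p under 0.05 in edgeR's quasi-likelihood test and at least a 1.5-fold change. Of 10985 genes tested, 1 was called lower at 18 hr (0.0091%) and 0 higher (0%), and DESeq2 on the same library columns called 12 lower and 10 higher. The called gene was *CG42375*, whose reads cannot be told from those of a neighbour, as described below. An unadjusted p under 0.05 was given to 485 genes lower at 18 hr (4.42%) and to 360 higher (3.28%). All 3 18 hr libraries lay below all 9 hr libraries for 1153 genes (10.5%) and above them for 862 (7.85%). These shares are the background for each count of members that follows, without regard to gene length, which is taken up below. Leaving out replicate 1 of the 9 hr group leaves the summed replicates 2 and 3 as the only 9 hr sample. For that fit effect sizes are given and no p-values, and its counts of genes enter only the ranges over fits given at the end. Without replicate 1 of the 18 hr group, the genes with an unadjusted p under 0.05 numbered 675 lower and 795 higher. Without replicate 3 of that group they numbered 400 lower and 156 higher.

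**Figure D1:**
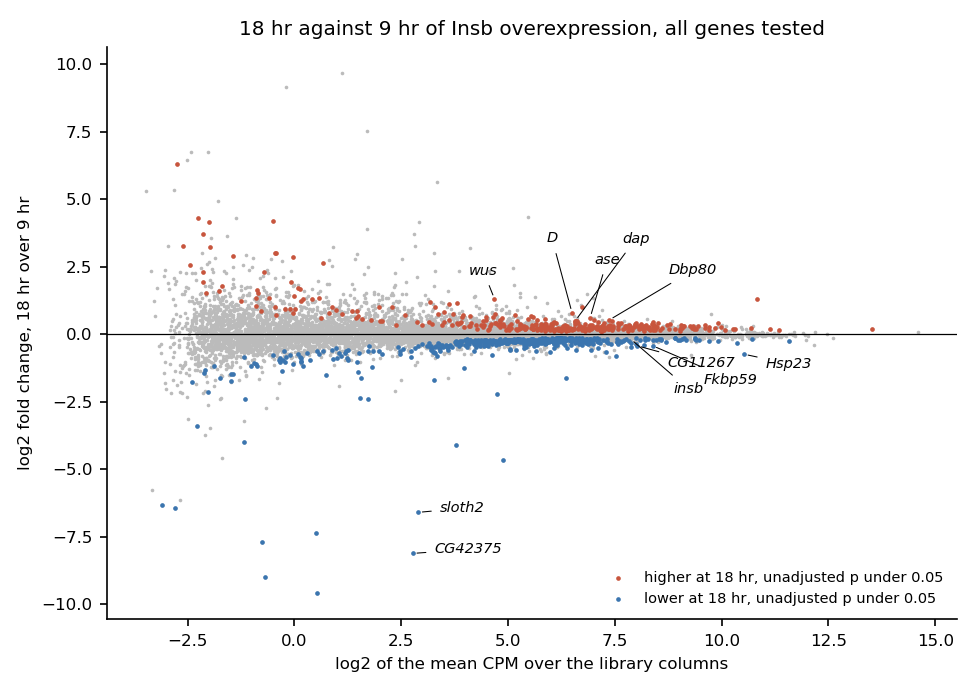
Log2 fold change of 18 hr over 9 hr against the log2 mean CPM for the 10985 genes tested; red and blue points are the 360 genes higher and the 485 genes lower at an unadjusted p under 0.05, and grey points are the others. *CG42375* and *sloth2* lie far below 0, while *D*, *ase*, *dap* and the chaperones *CG11267* and *Fkbp59* lie within 1 log2 unit of 0.

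The gene with the smallest p among those higher at 18 hr was *D* (*Dichaete*, 3L:14175610-14178620, dm6), the Sox family factor of young INPs. Its level was 71.3, 68.8 and 65.0 CPM in the 9 hr libraries and 113, 119.7 and 131 CPM in the 18 hr libraries. Each 18 hr library was well above each 9 hr library, and the 0 hr libraries, at 75.1, 75.1 and 70.6 CPM, were like those at 9 hr. The means were 69.1 ± 2.85 CPM (n = 2) and 121 ± 8.95 CPM (n = 3), a log2 fold change of 0.81 (SE 0.07) or 1.75-fold. The adjusted p of 0.0518 in edgeR's quasi-likelihood test lay just above the threshold. *D* was called when the near-identical 9 hr libraries entered separately (adjusted p = 0.0104), when either was left out (0.0327 and 0.0253) and by DESeq2 (3.65e-16). It was not called in a fit of the compared 6 libraries alone (adjusted p = 0.417, edgeR). The same held without replicates 2 and 3 of the 18 hr group in turn (0.29 and 0.182). With replicate number added to the fit its adjusted p was 0.123. Under other scalings and filters the adjusted p of *D* in edgeR was between 0.059 and 0.083. Without replicate 1 of the 9 hr group its log2 fold change was 0.85. In whole brains, a change in the number of cells of a type and a change in RNA per cell cannot be told apart.

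*ase* (X:460747-463176, dm6), which encodes the proneural factor that type II neuroblasts lack and INPs regain, had the next smallest p in the list of type II neuroblast and INP genes. The 9 hr libraries held 104, 117 and 114 CPM and the 18 hr libraries 159.8, 171 and 176 CPM. The groups did not overlap, and the 0 hr libraries were lower still, at 73.1, 80.3 and 90.9 CPM. The log2 fold change was 0.62 (SE 0.10), with an unadjusted p of 0.000469 and an adjusted p of 0.458. DESeq2 called *ase*, with an adjusted p of 2.02e-05, and edgeR did not in any setting tried.

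The zinc finger gene *opa*, which acts in the passage of INPs from their youngest stage, was at 55.4, 56.5 and 55.9 CPM at 9 hr and at 65.7, 75.6 and 79.8 CPM at 18 hr. Again the groups did not overlap, with the lowest 18 hr value in replicate 1 (log2 fold change 0.40, SE 0.09, unadjusted p = 0.00316). The homeobox gene *bsh* was at 10.4, 12.8 and 12.1 CPM at 9 hr and at 13.5, 21.6 and 20.8 CPM at 18 hr. Its groups were apart as well, by a small margin (log2 fold change 0.70, SE 0.21, unadjusted p = 0.0112). These were the 4 of 26 members of the list with an unadjusted p under 0.05, and 0 members were lower at that p. The median log2 fold change of the list was 0.13, against 0.01 for all genes tested. It was 0.08 without replicate 1 of the 9 hr group and 0.22 without replicate 1 of the 18 hr group, when 14 members had an unadjusted p under 0.05. Without replicate 3 of the 18 hr group the median was 0.01, with 4 members higher and 1 lower at that p. None of the 4 apart from *D* reached an adjusted p under 0.05 in edgeR.

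**Figure D2:**
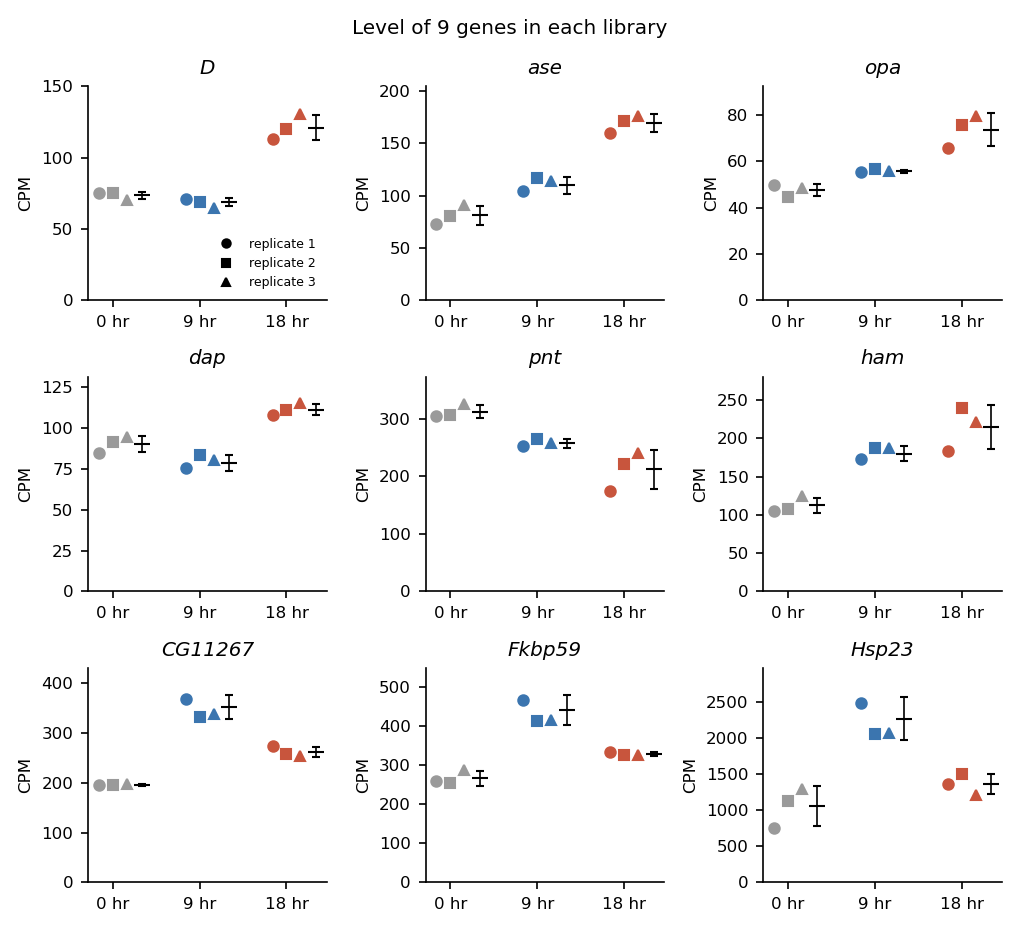
CPM of 9 genes in each library by time, with the replicate as the marker shape and the mean and SD as the black bar beside each group (n = 3, 2 and 3, with the near-identical 9 hr replicates 2 and 3 counted as 1). *D*, *ase*, *opa* and *dap* are higher in every 18 hr library than in any 9 hr library, whereas *pnt*, *CG11267*, *Fkbp59* and *Hsp23* are lower.

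Of the other genes that mark the passage from neuroblast to INP, *erm*, *tll* and *ham* overlapped between the times. *erm*, the zinc finger factor of immature INPs, was at 265, 284 and 292 CPM at 9 hr and at 197, 267 and 289 CPM at 18 hr, so that the groups overlapped. Both groups stood about 3 times above the 0 hr level of 89.6 ± 0.949 CPM. *tll*, the orphan nuclear receptor of type II neuroblasts, was at 88.0, 71.8 and 71.9 CPM at 9 hr and at 64.9, 75.3 and 83.2 CPM at 18 hr, with 159 ± 10.9 CPM at 0 hr. For both genes the 9 and 18 hr libraries overlapped each other and lay apart from those at 0 hr, with a log2 fold change of -0.14 (SE 0.15) for *erm* and -0.10 (SE 0.13) for *tll*. *ham*, which encodes a PR domain factor of INPs, was at 173, 187 and 187 CPM at 9 hr and 184, 239.8 and 221 CPM at 18 hr. Its groups overlapped through replicate 1 of the 18 hr group (log2 fold change 0.26, SE 0.12, unadjusted p = 0.0767).

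*pnt*, which encodes the ETS factor of type II neuroblasts, was the one member of the list with every 18 hr library below every 9 hr library. It was at 252, 265 and 258 CPM at 9 hr and at 175, 222 and 241 CPM at 18 hr, and the 0 hr libraries were at 305, 306 and 325 CPM. The log2 fold change was -0.28 (SE 0.12), which did not pass (unadjusted p = 0.0603). The neuroblast genes *dpn*, *klu*, *wor*, *btd* and *Sp1*, and *Six4* of the INPs, had log2 fold changes of 0.09, 0.09, 0.22, 0.03, 0.16 and 0.17, with SEs between 0.10 and 0.22 and overlapping groups. *wor* ranged most between the 18 hr libraries, at 301, 410.3 and 551 CPM against 361, 364 and 359.6 CPM at 9 hr. *HDAC3*, which encodes a histone deacetylase, was at 61.1 ± 3.21 CPM and 62.1 ± 2.42 CPM. *brat* reads, at 232 ± 17.6 CPM and 242 ± 41.7 CPM, were found in all libraries of these mutant brains and overlap those of other annotated genes.

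Of 20 Notch pathway genes, *insb* among them, 6 were higher at 18 hr at an unadjusted p under 0.05 and 0 were lower, with a median log2 fold change of 0.14. The receptor gene *N* was at 310.4, 356 and 357 CPM at 9 hr and at 399.5, 426 and 457 CPM at 18 hr. The groups did not overlap. The 0 hr libraries, at 493, 453 and 475 CPM, lay above those at 9 hr and overlapped the highest of those at 18 hr. Its log2 fold change was 0.36 (SE 0.09, unadjusted p = 0.00379, adjusted p = 0.544). An unadjusted p under 0.05 was also given to *kuz* (0.32, SE 0.10), which encodes a protease that cleaves the receptor, to the ligand gene *Dl* (0.25, SE 0.09), to *dx*, a regulator of the receptor (0.25, SE 0.09), to the polarity gene *l(2)gl* (0.25, SE 0.09) and to the co-repressor gene *gro* (0.20, SE 0.09). All 18 hr libraries lay above all 9 hr libraries for 7 members and below them for 1. Without replicate 1 of the 9 hr group the median was 0.12. Without replicate 2 of the 18 hr group 3 members were higher at an unadjusted p under 0.05. Without replicate 3 of that group 1 was higher and 1 lower.

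In the E(spl) complex and Bearded family, which hold direct targets of Notch, 2 of 15 members had an unadjusted p under 0.05 and both were higher. *E(spl)mbeta-HLH*, a repressor of the bHLH-Orange type, was at 62.7, 62.8 and 64.0 CPM at 9 hr and at 87.0, 75.2 and 84.5 CPM at 18 hr, with 40.1, 50.7 and 49.9 CPM at 0 hr. The 3 times did not overlap, and the log2 fold change from 9 to 18 hr was 0.39 (SE 0.11, unadjusted p = 0.0115). *E(spl)m7-HLH* was at 30.5, 31.8 and 34.7 CPM and at 41.2, 38.5 and 53.0 CPM, again with no overlap (0.48, SE 0.18). *E(spl)mgamma-HLH*, a member known from neuroblasts, was at 79.0 ± 0.901 CPM and 87.5 ± 5.35 CPM, which differed little (0.15, SE 0.08, unadjusted p = 0.103). The median of the list was 0.21, and its library score was 0.43 in replicate 1 of the 18 hr group and -0.40 in replicate 2, so that the 18 hr libraries spread on both sides of those at 9 hr. The library score is the median over members of the log2 ratio of a library's CPM to the gene's mean.

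Among cyclins and mitotic genes, the cyclin-dependent kinase inhibitor *dap* stood out. The gene, the fly relative of p21 and p27 that stops cells from entering S phase, was at 75.2, 83.6 and 80.6 CPM at 9 hr and at 108, 111 and 115 CPM at 18 hr. The groups were far apart for their spread, and the 0 hr libraries, at 84.6, 91.6 and 94.3 CPM, were closer to those at 9 hr. The means were 78.7 ± 5.05 CPM and 111 ± 3.52 CPM (log2 fold change 0.50, SE 0.07, or 1.41-fold). Its unadjusted p of 0.00016 was the third smallest of all genes, but the adjusted p was 0.458 (edgeR). The spindle checkpoint kinase gene *BubR1* (0.23, SE 0.08) and *Cdk2*, the partner of Cyclin E (0.14, SE 0.05), were the other members with an unadjusted p under 0.05, which makes 3 of 49 higher and 0 lower. The number higher was 14 without replicate 1 of the 18 hr group and 1 without replicate 3 of that group. *CycE* was at 144, 171 and 220.1 CPM at 9 hr and at 202, 248 and 251 CPM at 18 hr, with overlap. The list had a median of 0.13, and every 18 hr library lay above every 9 hr library for 16 of the 49 members and below for 1. Genes of replication licensing and S phase had a median of 0.02, with 1 of 38 higher and 0 lower at an unadjusted p under 0.05.

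Motor and polarity genes serve the divisions of these cells. Of 15 kinesin and dynein genes tested, 3 had an unadjusted p under 0.05 and all 3 were higher: *Dhc64C*, the heavy chain of cytoplasmic dynein (log2 fold change 0.39, SE 0.10), and the kinesin genes *Klp67A* (0.38, SE 0.10) and *Klp98A* (0.31, SE 0.09). *Dhc64C* was at 233, 279 and 286 CPM at 9 hr and at 313, 345 and 354 CPM at 18 hr, and the 0 hr libraries, at 375, 347 and 383 CPM, were at or above the 18 hr level. Of 23 genes of asymmetric division, 3 were higher and 0 lower, with *baz*, the Par3 homolog of the apical complex (0.32, SE 0.08), and *pon*, the partner of Numb (0.27, SE 0.10), beside *l(2)gl*. The medians of these lists were 0.10 and 0.07, and 0.07 and 0.03 without replicate 1 of the 9 hr group. Once the median of genes of like length was taken off, they were 0.06 and 0.001. Of the genes of asymmetric division, 8 were higher without replicate 1 of the 18 hr group and 1 without replicate 2 or 3.

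Of 35 chromatin remodelling and histone deacetylase genes, 5 had an unadjusted p under 0.05, all higher at 18 hr. *Psc*, a Polycomb repressive complex gene, was at 65.0, 75.8 and 74.4 CPM at 9 hr and at 83.5, 109 and 101 CPM at 18 hr. The groups did not overlap, and both lay below the 0 hr mean of 117 ± 10.8 CPM (0.49, SE 0.13, unadjusted p = 0.00789). The others were *trx*, the founding Trithorax gene (0.41, SE 0.17), *mor*, a subunit of the Brahma complex (0.22, SE 0.07), *Mi-2*, the ATPase of the NuRD complex (0.22, SE 0.08), and *Trl*, which encodes the GAGA factor (0.22, SE 0.08). The list had a median of 0.12. Its median was 0.105 without replicate 1 of the 9 hr group, and 0.08 with the median of genes of like length taken off. At an unadjusted p under 0.05, 14, 2 and 1 members were higher without replicates 1, 2 and 3 of the 18 hr group in turn. The axon guidance genes had 5 of 28 higher and 0 lower, with a median of 0.14. Their median was 0.05 once the median of genes of like length was taken off, and 0.09 without replicate 1 of the 9 hr group. Without replicates 1 and 3 of the 18 hr group in turn, 9 and 1 of them were higher.

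**Figure D3:**
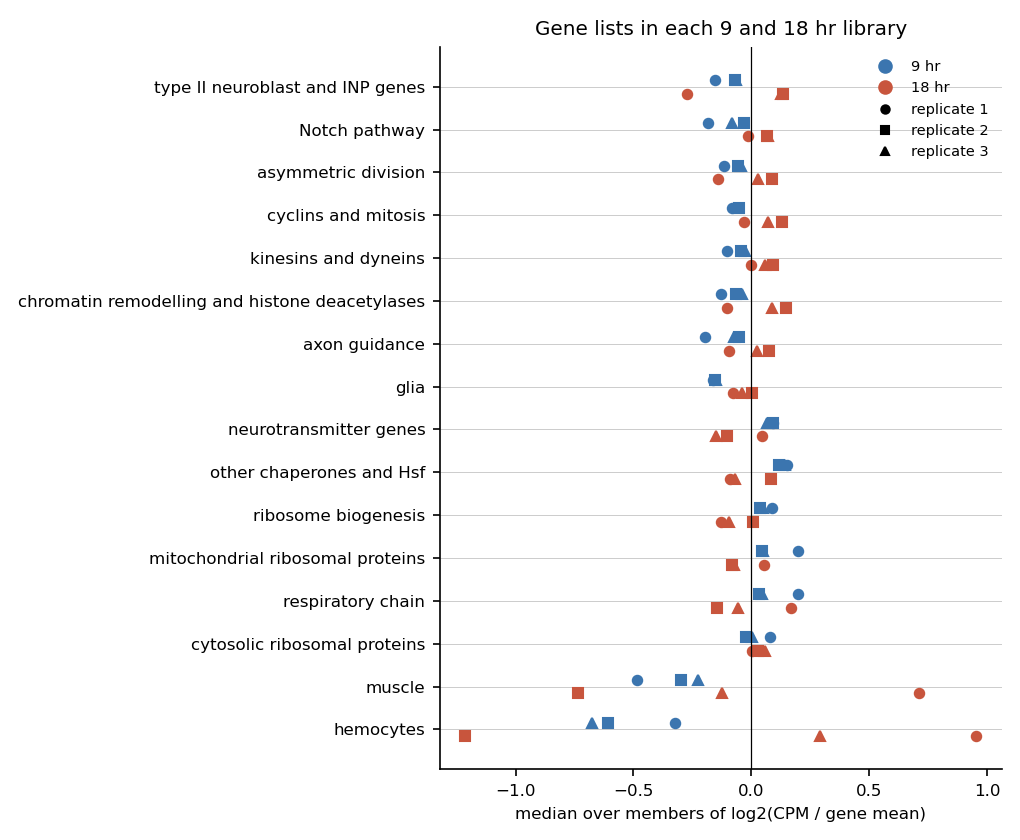
Score of 16 gene lists in each 9 hr (blue) and 18 hr (red) library, the median over members of the log2 ratio of the CPM to the gene's mean over all libraries, with the replicate as the marker shape. Chaperones and ribosome biogenesis genes are lower in every 18 hr library, Notch pathway, cyclin and glial genes are higher in every one, and muscle and hemocyte genes spread most among the 18 hr libraries.

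Chaperones were among the genes with the smallest p in the other direction. *CG11267* (3L:13016050-13016903, dm6), which the RefSeq annotation also lists as *Hsp10*, the partner of the mitochondrial chaperonin Hsp60, was at 369, 333 and 338 CPM at 9 hr and at 275, 259 and 254 CPM at 18 hr. All 18 hr libraries were below all 9 hr libraries and above the 0 hr libraries, which held 195, 195 and 198 CPM. The log2 fold change was -0.42 (SE 0.06, unadjusted p = 0.000234, adjusted p = 0.458, edgeR). In DESeq2 the adjusted p was 9.62e-08, with a change under the 1.5-fold limit. *Fkbp59*, which encodes an immunophilin that binds Hsp90, was at 469, 414 and 418 CPM at 9 hr and at 335, 327 and 327 CPM at 18 hr, with 259, 254 and 288 CPM at 0 hr. The order of the times was the same, with no overlap between them (-0.42, SE 0.08, unadjusted p = 0.000823). Its adjusted p in DESeq2 was 0.000222, again with a change under 1.5-fold.

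*Hop*, the adaptor between Hsp70 and Hsp90, *Hsp60*, *CG1416*, listed in RefSeq as the Hsp90 activator *Aha1*, and *Trap1*, the mitochondrial Hsp90, had log2 fold changes of -0.29 (SE 0.09), -0.24 (SE 0.07), -0.34 (SE 0.11) and -0.27 (SE 0.10). *Hop* was at 531, 489 and 503 CPM and then at 393, 457 and 408 CPM, and *CG1416* at 357, 309.9 and 312 CPM and then at 241, 287 and 262 CPM. For all of these the 18 hr libraries lay below those at 9 hr. In the list of 22 other chaperones, which holds the Hsc70 genes and *Hsf* but not the *Hsp70* copies or the small heat shock genes, 7 were lower at an unadjusted p under 0.05 and 0 higher, and 9 had no overlap, all lower. The median was -0.14. Without replicate 1 of the 9 hr group the median was -0.17. Without replicate 2 of the 18 hr group, the library with the highest chaperone score at that time, the median was -0.27.

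Among the heat-inducible genes, the *Hsp70* copies and *Hsp83* varied widely between libraries of one group. *Hsp70Ab* was at 85.6, 360.0 and 381 CPM at 9 hr and at 65.3, 410.3 and 147 CPM at 18 hr, and it was also at 1507 CPM in 1 of the 0 hr libraries, which were never shifted. The 6 *Hsp70* genes, which are near-identical copies between which reads can be shared out, had 0 members at an unadjusted p under 0.05. *Hsp83*, the fly Hsp90, was at 2903 ± 23.6 CPM and 2917 ± 994 CPM. Of the small heat shock genes, *Hsp23* was at 2478, 2049.6 and 2075 CPM at 9 hr and at 1368, 1497 and 1216 CPM at 18 hr, without overlap (log2 fold change -0.74, SE 0.21, unadjusted p = 0.00993). It was called lower by DESeq2 (adjusted p = 0.0411) and not by edgeR (adjusted p = 0.556). *Hsp26* was at 982, 936 and 945 CPM and then at 362, 866 and 472 CPM, also without overlap but with a wide spread at 18 hr.

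Nuclear genes for mitochondria were among those with a negative median. Of 75 mitochondrial ribosomal protein genes, 18 were lower at an unadjusted p under 0.05 and 0 higher, with a median log2 fold change of -0.15. *mRpL9*, of the large subunit, was at 57.0, 53.6 and 52.7 CPM at 9 hr and at 43.6, 45.6 and 45.2 CPM at 18 hr. *mRpS24*, of the small subunit, was at 20.4, 19.0 and 16.0 CPM and then at 14.9, 13.3 and 14.7 CPM. In both, the groups did not overlap, and the fitted values were -0.30 (SE 0.07) and -0.41 (SE 0.10). Without replicate 1 of the 9 hr group the median was -0.09. Without replicates 1 and 2 of the 18 hr group in turn, 34 and 10 of the 75 genes were lower at an unadjusted p under 0.05.

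Of 76 genes of the respiratory chain and its assembly, 8 were lower and 1 higher at an unadjusted p under 0.05, with a median of -0.13. These shares, 10.5% and 1.32%, were like the 10.2% and 1.32% of the shortest length class described below. The median exon length of the list, 842 bases, falls in that class, so the counts do not set the list apart from other short genes. *ND-23*, a subunit of complex I, was at 117, 108 and 107 CPM at 9 hr and at 91.8, 88.9 and 91.7 CPM at 18 hr, with 87.6, 83.7 and 86.5 CPM at 0 hr. The 18 hr libraries lay below those at 9 hr and just above those at 0 hr (log2 fold change -0.31, SE 0.06, unadjusted p = 0.000792). *Cox10*, which makes the heme of complex IV (-0.31, SE 0.07), and *COX6B*, a subunit of that complex (-0.26, SE 0.06), were further members. The higher one, *ATPsynCF6*, was at 85.7, 80.2 and 145 CPM at 9 hr, so that the near-identical replicates 2 and 3 disagreed, and at 164, 121 and 132 CPM at 18 hr. Without replicate 1 of the 9 hr group the median was -0.05. There were 35 lower genes without replicate 1 of the 18 hr group, with a median of -0.22, and without replicate 2 of that group the median was -0.06.

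Of 36 ribosome biogenesis genes, 8 were lower and 0 higher, and 18 had all 18 hr libraries below all 9 hr libraries. *Surf6*, a nucleolar protein gene, was at 90.8, 86.9 and 83.0 CPM and then at 70.9, 71.7 and 69.7 CPM. *Polr1B*, for a large subunit of RNA polymerase I, was at 139, 141 and 142 CPM and then at 111, 127 and 118 CPM. Both had no overlap between times, with log2 fold changes of -0.31 (SE 0.08) and -0.24 (SE 0.09), and *Ns3*, a nucleolar GTPase gene, had -0.19 (SE 0.06). The median was -0.13, and -0.12 without replicate 1 of the 9 hr group. Leaving out replicate 1 of the 18 hr group gave 4 members lower and 1 higher. Cytosolic ribosomal protein genes, in contrast, had a median of -0.01, with 2 of 89 lower and 1 higher, and translation factors -0.01, with 3 of 45 lower and 3 higher.

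The size of these group shifts was near that of a trend with gene length. Among genes averaging 5 CPM or more, the median log2 fold change went from -0.08 in the 908 genes with up to 1000 bases of exon to 0.14 in the 643 genes with over 7000 bases. In the same classes, 10.2% and 2.02% of genes were lower at an unadjusted p under 0.05, and 1.32% and 9.02% were higher. Replicate 1 of the 9 hr group moved with this trend: its median deviation from the gene means was 0.13 in the shortest class and -0.18 in the longest. Without it the class medians ran from -0.01 to 0.04. Replicate 1 of the 18 hr group deviated in the same direction, by 0.06 and -0.11, and without it the class medians ran from -0.126 to 0.165. The median exon length was 790 bases for the mitochondrial ribosomal protein genes, 842 for the respiratory chain, 2158 for ribosome biogenesis, 2716 for the chaperones, 3115 for the type II neuroblast and INP genes, 4095 for the Notch pathway and 6320 for axon guidance. With the median of the length class taken off each member, the list medians were -0.09, -0.06, -0.11, -0.12, 0.06, 0.13 and 0.05 in that order. The part of gene length in the results was not tested further.

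**Figure D4:**
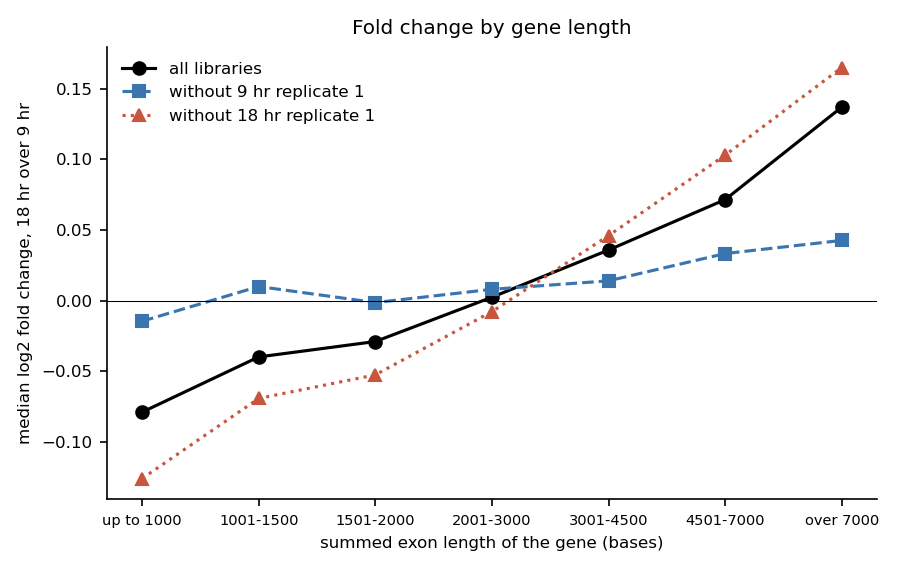
Median log2 fold change of 18 hr over 9 hr in 7 classes of summed exon length, for genes averaging 5 CPM or more, in the fit of all libraries and without replicate 1 of either group. The trend runs from -0.08 to 0.14 with all libraries and from -0.01 to 0.04 without 9 hr replicate 1.

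The called gene, *CG42375*, shares its annotated position with *CG9288* (3R:13779624-13780795, dm6, for both), and the count of either depends on how reads were shared out. *CG42375* had 422, 31 and 347 reads at 9 hr and 1 read in each 18 hr library, and *CG9288* had 586, 997 and 435 reads and then 1133, 850 and 902. Libraries with few reads of one gene had more of the other, and the near-identical replicates 2 and 3 of the 9 hr group were split quite differently. The sum of the pair was 29.4, 27.9 and 29.3 CPM at 9 hr and 31.6, 25.5 and 27.6 CPM at 18 hr, with a log2 fold change of -0.03 (adjusted p = 0.94, edgeR). Taken alone, *CG42375* was 278-fold lower at 18 hr by its reads (adjusted p = 0.00141, edgeR). The exact 95% interval of 94.7 to 1350.0 covers counting error only. That interval takes reads as independent and is too narrow if both reads of a pair were counted. The call was lost without replicate 3 of the 9 hr group (adjusted p = 0.386, edgeR).

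*sloth2* and *sloth1* likewise share a position (X:7011357-7012137, dm6). *sloth2* had 58, 633 and 390 reads at 9 hr and 1, 1 and 7 at 18 hr, while *sloth1* had 722, 109 and 165 and then 636, 471 and 534. The share between them varied widely within the 9 hr group as well as between the times. The sum was 22.7, 20.1 and 20.8 CPM at 9 hr and 17.7, 14.1 and 16.6 CPM at 18 hr, a log2 fold change of -0.42 (unadjusted p = 0.0143, adjusted p = 0.565). The strand and transcript rules that the counting followed are not given in the sources used here, so counts of other genes that overlap a neighbour, among them *Fkbp59*, *Nepl3*, *Fer2*, *CG2217*, *Rbp9*, *kuz*, *l(2)gl*, *gro*, *baz*, *Dhc64C*, *Klp67A*, *mor*, *Mi-2*, *Trl*, *trx*, *Surf6*, *mRpL9* and *mRpS24*, are uncertain in the same way.

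**Figure D5:**
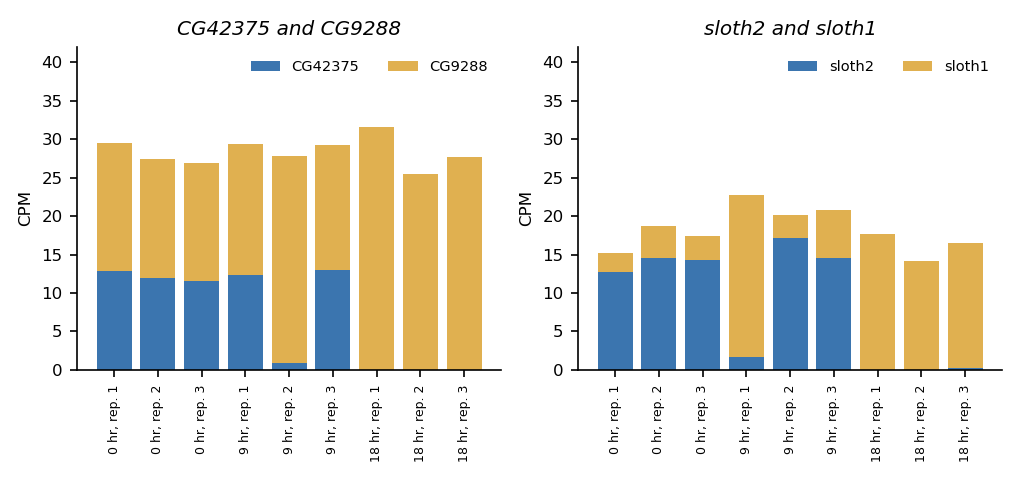
CPM of 2 pairs of genes annotated at one position, stacked per library, so that the bar height is the sum of the pair. The sum stays between 25.5 and 31.6 CPM for *CG42375* and *CG9288* while the part given to *CG42375* is near 0 in every 18 hr library and in 9 hr replicate 2.

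Other genes with small p or large changes had varied roles. *Dbp80*, an RNA helicase gene of mRNA export, was at 97.7, 109 and 101 CPM at 9 hr and at 157, 148 and 137 CPM at 18 hr, with no overlap (log2 fold change 0.53, SE 0.08, unadjusted p = 0.000221). Its 0 hr libraries, at 217, 237 and 226 CPM, were the highest. *CG40470*, at 18.3, 18.4 and 19.9 CPM and then 30.9, 33.4 and 27.2 CPM, and the neprilysin-like gene *Nepl3*, at 9.93, 12.0 and 11.5 CPM and then 18.8, 16.0 and 16.8 CPM, had the same order, with 52.7 ± 6.87 and 21.5 ± 1.18 CPM at 0 hr. For these 3 genes, the 18 hr level lay between those at 9 and 0 hr. *Fer2*, a bHLH factor gene, was at 21.2, 22.5 and 25.5 CPM and then at 30.2, 31.8 and 35.1 CPM, above its 0 hr level of 26.9 ± 1.41 CPM. *jvl*, a microtubule-associated protein gene, went from 102 ± 0.729 to 129 ± 7.40 CPM.

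*wus*, which encodes a membrane protein with a J domain, had a fitted log2 fold change of 1.32 (SE 0.21). *wus* was at 8.77, 7.81 and 25.4 CPM at 9 hr and at 28.0, 32.5 and 29.3 CPM at 18 hr. Replicates 2 and 3 of the 9 hr group, alike in nearly all genes, were about 3 times apart for *wus*. Such a gap of over 1.5-fold was found in 151 of 7862 genes averaging 5 CPM or more (1.92%), and also in 4 of the 26 genes with the smallest p or the largest changes, with *CG42375* and *SP555* among them. The log2 fold change of *wus* was 0.81 without replicate 2 of the 9 hr group and 1.85 without replicate 3, when it was called (adjusted p = 0.00232, edgeR). Of the further genes of large change, *Rbp9*, an RNA-binding protein gene of the ELAV family, was at 3.23, 4.42 and 4.49 CPM and then at 9.55, 5.15 and 11.8 CPM. *Cyp6d4*, a cytochrome P450 gene, was at 4.75, 6.37 and 6.89 CPM and then at 10.9, 10.1 and 13.6 CPM, and the β-galactosidase gene *Gal* was at 6.85, 5.26 and 5.58 CPM and then at 17.3, 8.27 and 14.5 CPM.

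In the lower direction, *Chchd2*, a mitochondrial protein gene, was at 195, 169 and 175 CPM at 9 hr and at 122, 128 and 118 CPM at 18 hr, with 97.7, 84.0 and 76.1 CPM at 0 hr. The times did not overlap (log2 fold change -0.58, SE 0.11, unadjusted p = 0.000949). *Dus3*, for a tRNA dihydrouridine synthase, had 64.0 ± 3.17 and 49.0 ± 1.21 CPM, *NAA20*, for the catalytic subunit of an N-terminal acetyltransferase and listed under a name that more than 1 current gene carries, 70.3 ± 2.70 and 55.8 ± 2.97 CPM, and *CG7872* 51.4 ± 3.14 and 38.9 ± 2.37 CPM. *CG2217* had 28.9 ± 1.3 and 18.8 ± 0.336 CPM. *RhoGAP102A*, a GTPase activator gene, was at 12.8, 11.8 and 12.3 CPM at 9 hr and at 8.21, 6.68 and 5.82 CPM at 18 hr, against 2.76, 2.54 and 2.62 CPM at 0 hr. Its 18 hr libraries were below all 9 hr libraries and above all 0 hr libraries (-0.85, SE 0.17, unadjusted p = 0.00134). *CG5618*, which overlaps *eRF1*, was at 41.3, 43.0 and 35.4 CPM and then at 20.1, 31.5 and 19.7 CPM. *SP555* was at 25.0, 26.7 and 10.3 CPM and then at 8.38, 9.68 and 10.1 CPM. The adjusted p in edgeR was at least 0.458 for each of these genes, from *Dbp80* to *SP555*, in the fit of all libraries.

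Markers of differentiated cells gave mixed values. Of 26 glial genes, 2 were higher and 1 lower at an unadjusted p under 0.05, namely the lipophorin receptor gene *LpR2* (45.6 ± 8.38 and 61.2 ± 5.70 CPM), *sprt* (19.5 ± 1.05 and 30.1 ± 9.11 CPM) and the amino acid transporter gene *Eaat2* (62.7 ± 0.838 and 52.8 ± 2.43 CPM). The glial median was 0.13, or 0.06 with length-class medians taken off, and *repo* had a log2 fold change of 0.02 (SE 0.09). Of 29 neuronal genes 2 were higher and 2 lower, with a median of -0.05. Their median was 0.04 and -0.10 without replicates 1 and 2 of the 18 hr group in turn. It was -0.16 with length-class medians taken off. Of 28 neurotransmitter genes 2 were lower and 0 higher, with a median of -0.13. These 2 were the acetylcholine receptor gene *nAChRalpha6*, at 85.3, 86.7 and 82.5 CPM and then at 56.7, 71.5 and 63.5 CPM, and *Tbh*, which makes octopamine, at 16.8, 13.4 and 13.7 CPM and then at 12.0, 10.8 and 9.64 CPM. Both were lower in every 18 hr library. Of 16 temporal patterning genes, 0 had an unadjusted p under 0.05 in either direction (edgeR), and the median was 0.06. That list leaves out *D* and *opa*, which are described above.

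Markers of cells outside the nervous system differed most between libraries of the 18 hr group. The hemocyte gene *Hml* was at 25.0, 20.4 and 21.6 CPM at 9 hr and at 129.8, 6.14 and 60.6 CPM at 18 hr. The fat body storage protein gene *Lsp2* was at 2.33, 93.8 and 94.9 CPM and then at 191, 3.92 and 5.17 CPM. The 18 hr libraries went beyond the 9 hr range on both sides for *Hml* and above it for *Lsp2*. The summed level of 17 hemocyte genes was between 249.7 and 324 CPM at 9 hr and between 203 and 709.6 CPM at 18 hr, that of 27 muscle genes between 731 and 961 CPM and between 968 and 1275 CPM, that of 13 tracheal genes between 450.1 and 562 CPM and between 444 and 889.8 CPM, and that of 16 fat body genes between 545 and 884 CPM and between 566 and 1450.0 CPM. No gene of these lists was without reads in all 6 libraries, and 4 muscle, 1 hemocyte and 2 fat body genes stayed under 1 CPM in all of them. The medians were 0.71, 0.77, 0.50 and 0.43 for hemocytes, muscle, trachea and fat body, and 0.38, 0.03, 0.15 and -0.12 without replicate 1 of the 18 hr group. At an unadjusted p under 0.05, 4 of 25 muscle genes, 1 of 13 tracheal genes and 0 of 16 hemocyte and 15 fat body genes were higher, and 0 were lower. Of the muscle genes, the actin gene *Act87E*, which has close paralogs, was at 36.4, 114 and 37.1 CPM at 9 hr and at 121, 117 and 121 CPM at 18 hr, and 9 hr replicates 2 and 3 again disagreed. The part of these tissues in the other results was not tested.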

How the data were processed

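Poly-A RNA of pooled *brat*-null larval brains was sequenced after 0, 9 or 18 hr of Insb overexpression, in 3 libraries per time. Per the submitters' processing notes and the study's methods, reads were checked with FastQC version 0.11.3, aligned to dm6 with HISAT2 version 2.1.0, quantified with StringTie version 1.3.4 and tested with DESeq2 version 1.20.0. The authors deposited whole-number counts per gene that are not normalized. The annotation version and the use of strand are not given in the sources used here. The methods call the samples biological replicates. Coordinates, exon lengths and current symbols were taken from the Ensembl annotation of dm6, in which 14405 of 14560 names were placed.

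Counts of 9 hr replicates 2 and 3 were summed, since their median chi-square over genes with 20 to 6000 reads was 0.812, against 0.91 for noise when a read pair counts as 2 reads, and 2.03 to 6.26 for the other pairs. The 8 columns were filtered with filterByExpr, scaled with TMM and fitted with glmQLFit and glmQLFTest in edgeR version 4.0.16 (R version 4.3.3), with the groups as the only term. The biological coefficient of variation was 0.265. CPM values are TMM-scaled. At totals of 26533845 to 37109356 counts, 1 CPM is about 26.5 to 37.1 reads. Alternatives were DESeq2 version 1.42.0, other scalings and filters, the pair kept separate, the 9 and 18 hr libraries alone, a replicate block, each library left out, and a test against a 1.5-fold change. The sum of gene pairs that share a position and the subtraction of length-class medians were added after seeing the data.

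The comparison and the 64 gene lists were chosen with earlier results of these data known. The rule for naming took the 10 genes of smallest p and the 5 of largest change in each direction averaging 5 CPM or more, the genes the study followed, and up to 6 members per list. Only part of these genes and lists is described here. *Hsp83*, *elav*, *repo*, *mira*, *CycE*, *CG9288* and *sloth1* were added after their values were seen. A permutation test of 2 or 3 libraries against 3 cannot go below p = 0.1, so none is given.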

Additional observations from a re-analysis of the deposited data

How the results depend on the processing

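Counts of called genes were small and moved with the setting. Genes called lower numbered 0 with the 9 and 18 hr libraries alone, 0 with the pair separate, 0 with at least 10 counts in every library, 0 with the reads of gene pairs at one position summed and 12 with DESeq2. Genes called higher numbered 1 with the pair separate and 10 with DESeq2. Leaving out 1 library at a time gave 0 to 2 genes called lower and 0 to 4 called higher, and genes with an unadjusted p under 0.05 ranged from 134 to 675 lower and from 125 to 795 higher. The low ends of the ranges by unadjusted p came from the fit without replicate 1 of the 9 hr group. That fit leaves 1 sample at 9 hr, so its counts are not comparable with the others. The other fits that leave out 1 library gave 400 to 675 lower and 156 to 795 higher. Over all settings other than the main fit, the log2 fold change of *D* stayed between 0.72 and 0.85 and that of *ase* between 0.55 and 0.66. The median of the other chaperones was -0.27 without 18 hr replicate 2, within a range of -0.269 to -0.133 over the fits that leave out 1 library, and that of axon guidance was 0.0491 with the length-class median subtracted. Deviations of same-numbered 9 and 18 hr libraries from their group means had correlations of -0.10, -0.09 and -0.0003. Those of same-numbered 0 and 18 hr libraries had 0.35, -0.26 and -0.22. As 9 hr replicates 2 and 3 were near-identical, the values for the 9 hr group cannot show whether replicate numbers pair the samples. With the replicate block, 0 genes were called lower and 550 had an unadjusted p under 0.05 and were higher, against 513 with the pair separate and no block and 360 with the pair summed. The described list medians kept their sign under RLE and upper-quartile scaling. The p-values rest on the spread between 2 and 3 samples per time.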
